A study of Mus musculus with 2 samples.

Results

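Axon guidance ligands and receptors were examined in layer 5 pyramidal neurons, the excitatory projection cells of a deep layer of the mouse cortex. The set comprised 66 protein-coding genes chosen by symbol: the semaphorins, plexins, neuropilins, ephrins, Eph receptors, Slit1 to Slit3, Robo1 to Robo3, Ntn1, Ntn4, Dcc and Unc5a to Unc5d. These were 66 of 21474 protein-coding genes and of 43346 gene entries in the tables, and they divided into 33 ligands and 33 receptors. The selection rule reads gene symbols and biotypes and no measured value.

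The data came from 2 RNA-seq libraries of 1 group. Each was made from a pool of 50 cells taken by laser capture from wild-type male mice aged 8 months, by a Smart-seq type protocol with spike-in controls, for RNA above 200 nt. The labels write the strain as B6NCrl, C57Bl5 and C57Bl6 in different fields, and carry an antibody tag that reads Control. Both libraries, labelled biological replicates 1 and 2, have the same donor identifier, so whether they came from separate animals is not settled. Their spread could hold technical differences and those between pools of cells. Whether it also holds differences between animals is not known. There was no second condition, age, sex or cell type, so no test was run. Because each value is that of a pool, fewer cells expressing a gene and less RNA per cell cannot be told apart.

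Guidance cues are proteins that steer growing axons by attraction or repulsion, and in the mature cortex many of them act at synapses and dendritic spines. Secreted or membrane-bound ligands meet receptors on the growth cone: semaphorins bind plexins, often with a neuropilin, ephrins bind Eph receptor tyrosine kinases, Slits bind Robos, and netrins bind Dcc and the Unc5 proteins. The receptors then act on the actin and microtubule skeleton through small GTPases, kinases and collapsin response mediator proteins.

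The 4 members with the highest levels were Eph receptors, and 1 of them, Ephb6, differs from the others in the part of the kinase that carries out phosphate transfer, as does Epha10. The catalytic loop is shown as coding bases, 5′ to 3′, with capitals marking codons for another residue than in Epha4. Bases and positions are from GENCODE M21 on GRCm38.
Epha4, chr1:77382962-77382985, minus strand: catcgagacctggctgccaggaac
Epha5, chr5:84084799-84084822, minus strand: catagagaccttgctgctagaaac
Epha7, chr4:28950452-28950475, plus strand: cacagggaccttgcagcgcgcaac
Ephb6, chr6:41618664-41618687, plus strand: caccgaGCActcTCGgcccgaAGT
Epha10, chr4:124914018-124914041, plus strand: caccggGGCcttgcagcccgcCGA
Ephb6 encoded another residue than Epha4 at 3 of the 8 codons and Epha10 at 2. In both, the codon of the catalytic aspartate was replaced, and both proteins are known as Eph receptors without kinase activity. The other 12 of the 14 Eph receptors encoded the same 8 residues as Epha4. Over its whole length the Ephb6 protein matched 43.8% of Epha4 residues, against 66.4% for Epha5 and 63.6% for Epha7.

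The libraries held 24171434 and 27946180 estimated reads in replicates 1 and 2, of which 4.28% and 5.32% were spike-ins. All 6 glutamatergic and all 7 layer 5 markers were at TPM (transcript abundance normalised for length and depth) of at least 1 in each library, including the glutamate transporter Slc17a7 at 31.9 and 49.3 TPM and the layer 5 regulator Fezf2 at 20.0 and 44.4 TPM. The glutamatergic markers summed to 285 and 278 TPM and the layer 5 markers to 2345 and 4818. Markers of other cells were present as well. Those of interneurons, which pyramidal neurons should lack, summed to more than the glutamatergic ones in each library, as did those of astrocytes and oligodendrocytes. The 6 interneuron markers summed to 3345 and 1291 TPM, the 6 astrocyte markers to 351 and 390, and the 6 oligodendrocyte markers to 487 and 621. Sst alone held 2506 and 844 TPM of the interneuron sum, and Pcp4 held 2134 and 4468 TPM of the layer 5 sum. Aldoc held 272 and 326 TPM of the astrocyte sum, and the next astrocyte marker, Slc1a3, stood at 45.6 and 37.0 TPM. The astrocyte sum thus exceeded the glutamatergic one mainly through 1 gene. Of the other interneuron markers, Pvalb stood at 508 and 338 TPM and Gad1 at 142.6 and 94.8. Gad2 stood at 31.7 and 11.1 TPM and Slc32a1 at 3.63 and 2.66. The 7 microglial markers summed to 110.4 and 42.3 TPM, the 4 markers of oligodendrocyte precursors to 16.3 and 6.19, and the 6 endothelial markers to 41.0 and 51.6. No marker was at 0 reads in either library, but Vip, an interneuron peptide gene, had 4365 reads in replicate 1 and 1 in replicate 2.

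Guidance genes were present at low to moderate levels. At TPM of at least 1, 47 members were detected in replicate 1 and 43 in replicate 2, and 39 of the 66 (59.1%) in both, beside 52.2% of all protein-coding genes. Their median was 2.63 and 2.66 TPM (2.64 ± 0.018, SD, n = 2), beside 2.02 and 1.84 TPM for all protein-coding genes. Of the 66 members, 15 were under 1 TPM in each library. Restricted to genes that averaged at least 1 TPM, the median was 5.31 TPM for the members, beside 11.95 and 11.89 TPM in the libraries for 11946 protein-coding genes. The summed level of the members was 463 and 468 TPM, of which receptors took 318 and 336 and ligands 145 and 132.

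Eph receptors led the set. The 4 highest members, Epha4, Epha5, Ephb6 and Epha7, together held 43.6% and 44.9% of the members' summed TPM. The lowest of their 8 values was 34.8 TPM, and the highest value of any other member in either library was 23.4 TPM.

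**Figure D1:**
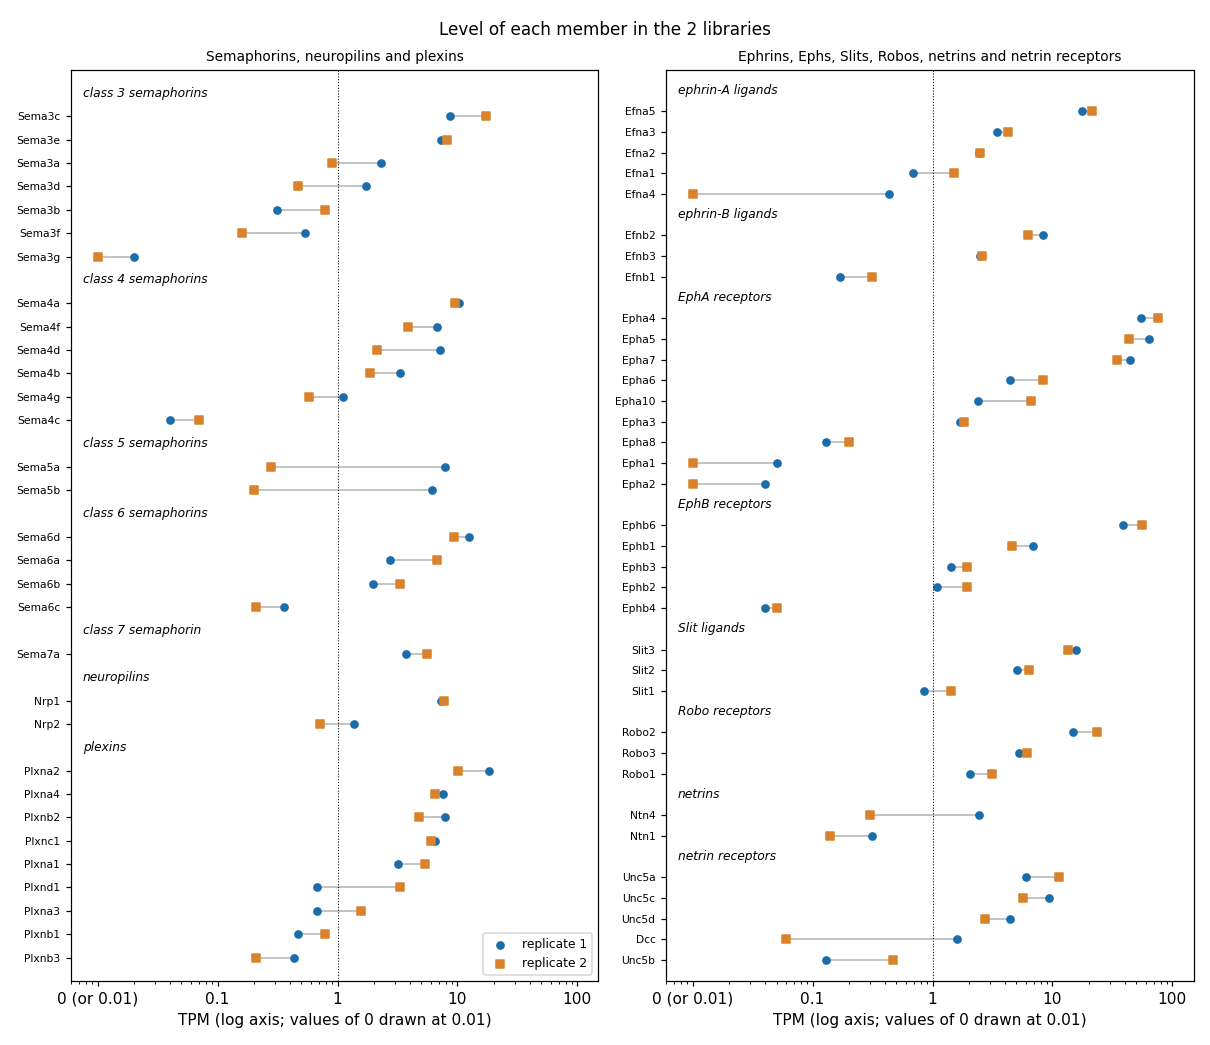
TPM of each of the 66 members in replicate 1 (circles) and replicate 2 (squares) on a log axis, by family, with values of 0 drawn at 0.01 and a dotted line at 1 TPM. Epha4, Epha5, Ephb6 and Epha7 lie between 34.8 and 76.0 TPM, to the right of all other members, while Sema5a, Sema5b, Dcc and Ntn4 show the widest gaps toward lower values in replicate 2 among members with reads in both.

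Among the EphA receptors, which mainly bind ephrin-A ligands, Epha4 stood at 54.6 TPM in replicate 1 and 76.0 in replicate 2 (65.3 ± 15.1, SD, n = 2). This receptor is known for keeping corticospinal axons from recrossing the midline and for shaping dendritic spines. Epha5, a receptor known from cortical and hippocampal mapping, stood at 63.6 and 43.7 TPM (53.6 ± 14.04). Epha7, which also occurs in forms that lack the kinase, stood at 44.5 and 34.8 TPM (39.6 ± 6.84). Epha4 was the higher of the first pair in replicate 2 and Epha5 in replicate 1, so their order did not hold between libraries. The sum over the 9 EphA receptors, in contrast, was 171 TPM in each library.

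Epha6 followed at 4.41 and 8.26 TPM (6.33 ± 2.72, SD, n = 2). The remaining 5 EphA genes ranged from 0 to 6.62 TPM. Of these, Epha10 and Epha3 were detected in each library. Epha8 reached 0.13 and 0.20 TPM. Epha1 and Epha2 each had 3 reads in replicate 1 and 0 in replicate 2, where 0 reads allow up to 0.115 CPM (reads scaled to library size without length), which is 3 reads at that depth. These are the Eph genes best known from epithelium rather than brain.

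Among the 5 EphB receptors, which mainly bind ephrin-B ligands, Ephb6 stood at 39.1 and 55.7 TPM (47.4 ± 11.8, SD, n = 2). Ephb1, which steers retinal axons at the optic chiasm, stood at 6.88 and 4.61 TPM (5.75 ± 1.61). The other EphB genes, Ephb2, Ephb3 and Ephb4, lay between 0.04 and 1.94 TPM. Thus by gene TPM 1 EphB receptor, the kinase-inactive Ephb6, held most of the EphB sum of 48.5 and 64.3 TPM. In replicate 1, however, 73.3% of the Ephb6 TPM was on a 459 nt transcript with 21.3% of its reads. By CPM the lead was smaller, with Ephb6 at 41.5 and 53.4 and Ephb1 at 26.7 and 17.7. Ephb4, known from blood vessels, had 3 and 4 reads.

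Ephrins are anchored to the membrane, the A class by a lipid (GPI) anchor and the B class by a transmembrane segment with a cytoplasmic tail. The ends of the coding sequence of the most abundant ligand of each class, and of the next ephrin-B, show this difference. Each run gives the last 60 coding bases and the stop codon on GRCm38, with capitals on the last 4 codons before the stop.
Efna5, chr17:62607342-62607404, minus strand: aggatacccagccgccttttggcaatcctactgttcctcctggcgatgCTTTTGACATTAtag
Efnb2, chr8:8620588-8620650, minus strand: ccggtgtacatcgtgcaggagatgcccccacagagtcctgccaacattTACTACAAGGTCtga
Efnb3, chr11:69555860-69555922, minus strand: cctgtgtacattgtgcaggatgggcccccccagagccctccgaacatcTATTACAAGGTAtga
The capitals of Efnb2 and Efnb3 differ in bases but encode the same 4 residues, the known PDZ-binding end of ephrin-B proteins. All 3 ephrin-B genes shared these residues and none of the 5 ephrin-A genes did. Efna5 ends instead in a hydrophobic stretch, of the kind that is removed when the lipid anchor is attached.

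Efna5, a ligand of several EphA receptors, was the most abundant ligand of the whole set, at 17.7 and 21.5 TPM (19.6 ± 2.69, SD, n = 2). Efnb2, a ligand of EphB receptors and of Epha4, stood at 8.27 and 6.29 TPM (7.28 ± 1.40). The remaining ephrins were lower, and the order of Efna5 over Efnb2 was the same in both libraries. Efna3, Efna2, Efna1 and Efna4 lay between 0 and 4.24 TPM, and Efnb3 and Efnb1 between 0.17 and 2.58 TPM. Efnb3, the midline ligand of Epha4, was nearly equal in the libraries, at 2.50 and 2.58 TPM. Efna4 had 13 reads in replicate 1 and 0 in replicate 2, and 10.5% of its exon bases overlap another gene.

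Slits are secreted repellents of axons, and Robos are their receptors. Slit3 stood at 15.8 and 13.5 TPM (14.7 ± 1.58, SD, n = 2), but 84.6% of its TPM in replicate 1 was assigned to a short noncoding transcript. Slit2 stood at 5.05 and 6.41 TPM (5.73 ± 0.96), and Slit1 at 0.85 and 1.42. Robo2, a Slit receptor on cortical projection axons, stood at 14.8 and 23.4 TPM (19.1 ± 6.08). Robo3, a divergent family member known from commissural axons, stood at 5.24 and 6.13 TPM (5.69 ± 0.63), and Robo1 at 2.04 and 3.14. In replicate 1, 27.6% of the Robo3 TPM was on coding transcripts. All 3 Robo genes were detected in each library, with Robo2 the highest in both.

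Semaphorins are grouped by class: class 3 is secreted, classes 4, 5 and 6 span the membrane, and class 7 has a lipid anchor. Of the 20 semaphorin genes, 10 (50.0%) were detected in both libraries, beside 52.2% of all protein-coding genes. Another 5 were detected in replicate 1 alone. Sema3c, which can attract cortical axons, stood at 8.59 and 17.3 TPM (12.9 ± 6.14, SD, n = 2). Sema3e, the direct ligand of plexin D1, stood at 7.27 and 8.16 TPM (7.72 ± 0.63). The other 5 class 3 genes lay between 0 and 2.32 TPM, among them Sema3a, the classic collapsing factor, at 2.32 and 0.90. Sema3f, a repellent that acts through Nrp2, had 8 and 10 reads, and Sema3g had 2 and 0. By gene TPM, Sema3c and Sema3e were the highest secreted semaphorins in both libraries. In replicate 1, however, 14.1% of the Sema3c TPM (1.21 TPM) was on its coding transcript, below the coding TPM of Sema3a (2.32) and Sema3d (1.72).

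Of the membrane-spanning classes, Sema6d, a plexin A1 ligand, stood at 12.5 and 9.36 TPM (10.9 ± 2.23, SD, n = 2). Sema4a, known from the retina and immune cells, stood at 10.3 and 9.48 TPM (9.87 ± 0.55). Sema4f, a semaphorin found at glutamatergic synapses, stood at 6.80 and 3.84 TPM (5.32 ± 2.09). Other class 4 genes lay between 0.04 and 7.16 TPM, the highest of them Sema4d, the plexin B1 ligand, at 7.16 and 2.12. Sema6a, Sema6b and Sema6c lay between 0.21 and 6.82 TPM. Sema7a, which binds plexin C1 and integrins, stood at 3.72 and 5.59 TPM. The class 5 genes differed most: Sema5a stood at 7.89 TPM in replicate 1 and 0.28 in replicate 2. Sema5b stood at 6.13 and 0.20 TPM. The 2 class 5 proteins matched at 56.2% of residues.

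TPM depends on the effective transcript length in the authors' tables, and for some semaphorins that length differed between the libraries. Sema6a stood at 2.76 and 6.82 TPM, with effective lengths of 5785 and 2789 nt and CPM of 13.6 and 16.3. Sema4d had effective lengths of 1669 and 3138 nt, and its CPM of 10.2 and 5.70 differed less than its TPM. The libraries were therefore compared on CPM.

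Plexins are the signal-transducing receptors of semaphorins, and neuropilins bind the secreted class. Plxna2, a receptor of class 6 semaphorins, stood at 18.4 and 10.04 TPM (14.2 ± 5.90, SD, n = 2). Plxna4, a partner of neuropilin 1, stood at 7.64 and 6.46 TPM (7.05 ± 0.83). Plxnc1, the Sema7a receptor, stood at 6.50 and 6.06 TPM (6.28 ± 0.31). Plxnb2, a receptor of class 4 semaphorins, stood at 7.92 and 4.74 TPM (6.33 ± 2.25). The 5 other plexins lay between 0.21 and 5.38 TPM. Of the neuropilins, Nrp1, the Sema3a receptor, stood at 7.33 and 7.78 TPM (7.56 ± 0.32), and Nrp2 at 1.37 and 0.71. Nrp1 thus lay above Nrp2 in both libraries. Plxnb1 and Plxnb3, receptors of class 4 and class 5 semaphorins, were under 1 TPM in each library.

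Netrin ligands were low, and 3 of their 5 receptors were detected in both libraries. Ntn1, the founding chemoattractant, had 35 and 18 reads (0.31 and 0.14 TPM), and Ntn4, a netrin of basement membranes, stood at 2.46 and 0.30 TPM. Dcc, the attractive receptor, stood at 1.60 and 0.06 TPM. Unc5 receptors, which mediate repulsion, were higher. Unc5a stood at 6.06 and 11.3 TPM (8.66 ± 3.68, SD, n = 2), Unc5c at 9.40 and 5.63 (7.51 ± 2.67), and Unc5d, which also binds Flrt proteins, at 4.39 and 2.73. Unc5b, known from blood vessels, was under 1 TPM in each library.

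Receptors and ligands of each system were compared by the difference of their medians on the log2(TPM + 1) scale within each library. For netrins it was 1.34 and 1.62 (1.48 ± 0.19, SD, n = 2) in favour of the 5 receptors over the 2 ligands. For semaphorins it was 0.06 and 1.30 (0.68 ± 0.88), a mean smaller than its SD, over 11 receptors and 20 ligands. Counting only protein-coding transcripts in replicate 1, the semaphorin difference was -0.34. For ephrins it was -0.20 and 0.20, and for Slits 0.045 and -0.056, so in both systems the sign differed between the libraries. With means in place of medians the ephrin difference was 0.65 ± 0.081 and the Slit difference was 0.36 ± 0.19. No test was run on these 2 values per system.

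**Figure D2:**
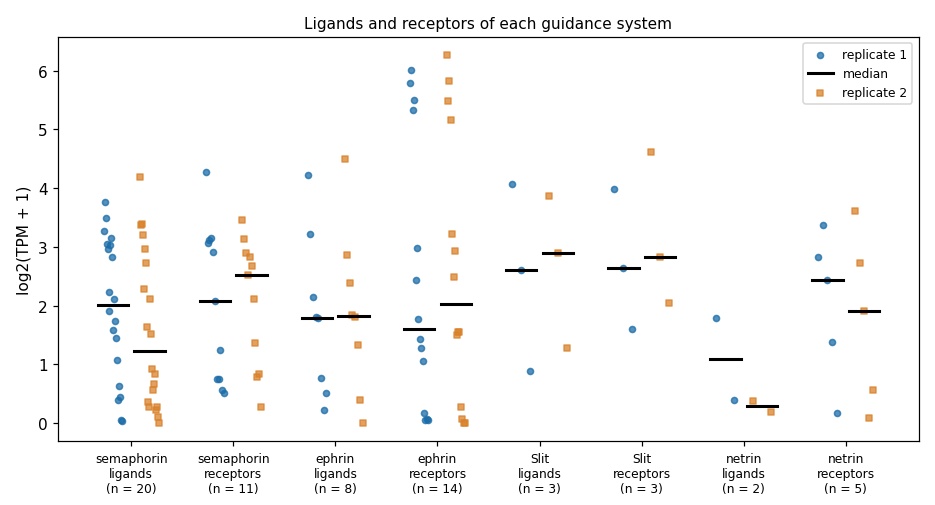
log2(TPM + 1) of each member, grouped into ligands and receptors of the 4 guidance systems, in replicate 1 (circles) and replicate 2 (squares), with black bars at the medians. The netrin receptor median lies above the netrin ligand median in each library by 1.34 and 1.62, and 4 Eph receptors stand above all other points.

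Between the libraries, the members' levels correlated across genes with Pearson's r = 0.886 and Spearman's rho = 0.856 on the log2(TPM + 1) scale (n = 66 genes, which share library and depth and are not replicates). Over 11946 protein-coding genes at mean TPM of at least 1 the values were 0.96 and 0.951. No such minimum was set for the members, so the 2 sets of genes are not alike. At mean CPM of at least 10, 31 members could be compared on CPM with TMM scaling. The median size of their log2 ratio, with a pseudocount of 1 CPM, was 0.52, beside 0.26 over all 9190 genes above that level. Of the 31 members, 1 was at least 2-fold higher in replicate 1, beside 2.6% of all genes, and 2 were at least 2-fold higher in replicate 2, beside 1.86%. All 3 were under 10 CPM in the library where they were lower, and so passed the minimum through the other library. With 1 library on each side these differences have no replicate check, and the intervals given cover counting error only.

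Sema5a had 1690 reads in replicate 1 and 67 in replicate 2, a CPM ratio of 28.2 (95% exact interval 22.1 to 36.6). The gene lies on chromosome 15 at 32244810 to 32696341 (GRCm38), and its single annotated transcript in the table encodes protein. Plxnd1, the Sema3e receptor, had 91 reads in replicate 1 and 503 in replicate 2, 4.94-fold higher in replicate 2 (3.95 to 6.25). Its ligand Sema3e differed little, with 977 and 1228 reads. Epha10 had 195 and 512 reads, 2.35-fold higher in replicate 2 (1.99 to 2.78). When spike-in totals set the library sizes, the median log2 ratio of all genes moved from -0.03 to 0.33, Epha10 fell inside the 2-fold limit, and the members beyond it were Plxnd1, Sema4f, Sema5a, Sema5b and Unc5d. Sema3c, at 1.999-fold higher CPM in replicate 2, lay just inside the limit. Epha6, at 2.04-fold, lay inside it once the pseudocount was added. With the pseudocount the log2 ratios of Sema3c and Epha6 were -0.97 and -0.94.

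With the minimum lowered to a mean CPM of 1, 56 members could be compared. Of these, 6 were at least 2-fold higher in replicate 1, beside 6.41% of 14331 genes, and 3 in replicate 2, beside 3.94%. This added 6 members. Sema5b, the paralog of Sema5a, had 417 and 19 reads (24.5-fold, 15.5 to 41.2). Dcc had 148 and 6 reads (27.6-fold, 12.4 to 76.3), and Ntn4 had 173 and 24 (8.06-fold, 5.24 to 12.9). Sema3d had 221 and 67 reads and Sema3a 270 and 117. Unc5b went the other way, with 15 and 60 reads. Sema5b, Dcc and Ntn4 were under 1 CPM in replicate 2, and Unc5b was in replicate 1. Each of them thus passed the lowered minimum through the library where it was higher.

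**Figure D3:**
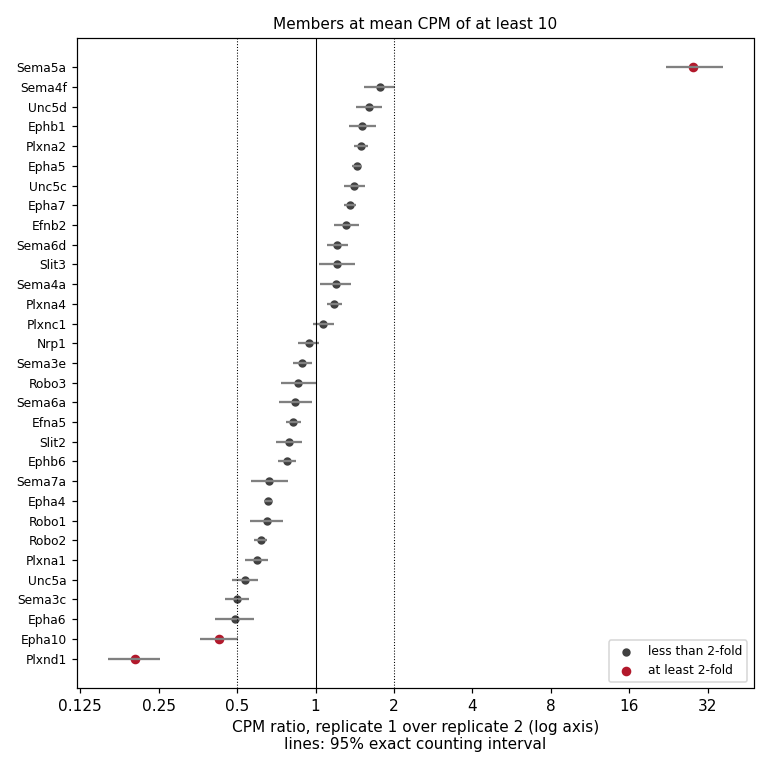
CPM ratio of replicate 1 over replicate 2 (log axis) for the 31 members at mean CPM of at least 10, with 95% exact counting intervals and dotted lines at 2-fold. Sema5a lies at 28.2, far from the other members, and Plxnd1 and Epha10 are the members at least 2-fold higher in replicate 2 after the pseudocount.

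The most abundant members differed by less than 2-fold, with CPM ratios of replicate 1 over replicate 2 of 0.66 for Epha4, 1.44 for Epha5, 1.36 for Epha7, 0.78 for Ephb6 and 0.62 for Robo2. Markers of some cell types differed between the same libraries. At mean CPM of at least 10, 3 of 5 interneuron markers (Sst, Vip and Gad2) were at least 2-fold higher in replicate 1. So were 3 of 4 microglial markers and 2 of 2 markers of oligodendrocyte precursors, beside 2.6% of all genes. At least 2-fold higher in replicate 2 were 3 of 7 layer 5 markers (Pcp4, Etv1 and Fezf2), beside 1.86% of all genes. None of the 6 glutamatergic, 5 astrocyte, 6 oligodendrocyte and 2 endothelial markers compared differed by 2-fold. The part of these cell types in the differences of Sema5a, Sema5b, Dcc, Ntn4, Plxnd1 and Epha10 was not tested.

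Transcripts were resolved in replicate 1, for which a transcript table was used. Of the 47 members at gene TPM of at least 1, the transcript with the largest share of the gene's TPM was annotated protein-coding in 39 (83.0%), beside 87.3% of all protein-coding genes at that level. TPM divides reads by length, so a short transcript can hold most of a gene's TPM with few of its reads. For 44 of the 47, at least 50% of the reads were on protein-coding transcripts, beside 92% of those genes.

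For the most abundant members the transcripts differed in kind. Epha5 was led by a coding transcript with 62.3% of TPM, while transcripts with retained introns held most of the rest. Epha4 was led by its full-length coding transcript at 58.7% of TPM and 93.7% of reads, with a 614 nt coding transcript at 40.1% of TPM. Ephb6 was led by a 459 nt coding transcript at 73.3% of TPM but 21.3% of reads. The full-length transcript held 765 reads and 10.4 TPM, so most of the 39.1 TPM of Ephb6 in replicate 1 was assigned to a short model, 97.6% of whose bases lie in exons of the full-length transcript. Efna5 came from a single coding transcript.

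Epha7 was led by a short coding form. This short form, of 2880 nt and 610 codons, held 45.7% of the gene's TPM and 35.6% of its reads, and a long form, of 6615 nt and 994 codons, held 21.6% of TPM and 39.4% of reads. The forms share their first 599 codons and then diverge, and the catalytic loop lies only in the long form. The junction is shown on the plus strand of GRCm38 with capitals after the shared part. In the short form the capitals run to the stop codon.
Epha7 short form, within chr4:28943349-28946253: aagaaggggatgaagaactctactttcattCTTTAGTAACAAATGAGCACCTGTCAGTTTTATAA
Epha7 long form, within chr4:28943349-28947599: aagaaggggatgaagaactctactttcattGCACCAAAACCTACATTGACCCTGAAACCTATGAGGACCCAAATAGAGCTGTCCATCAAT
Forms of Epha7 without a kinase are known to alter the response of cells to ephrin-A ligands. Here the short form had about as many reads (1130) as the long one (1251), and a second long form with the loop added 198.

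In 8 members the leading transcript was not coding, and 3 of these had gene TPM of at least 10. Slit3 was led by a processed transcript of 459 nt with 84.6% of TPM and 96 reads. Its coding transcript held 250 reads and 2.44 TPM. Plxna2 was led by a transcript with a retained intron at 55.4% of TPM, and its coding transcript held 70.3% of reads and 7.18 TPM. Sema4a was led by a retained-intron transcript at 49.3% of TPM, with 54.6% of its reads on coding transcripts. The other 5 were Sema3c, Plxnb2, Sema4d, Robo3 and Ephb3. Plxnb2 had 34.1% of its reads on coding transcripts, Sema3c 25.5% and Robo3 45.0%. Their gene values in replicate 1 thus rested mostly on transcripts annotated as noncoding.

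Ranked by coding TPM alone in replicate 1, Epha4 (53.9), Epha5 (43.3), Ephb6 (39.1) and Epha7 (31.4) were the 4 highest, followed by Efna5 (17.7), Robo2 (10.6) and Efnb2 (8.27). The Ephb6 value includes its short coding transcript, and its full-length transcript alone held 10.4 TPM. That was below the single Efna5 transcript (17.7) and above the highest single Robo2 transcript (5.79), since the Robo2 value also sums several coding transcripts. Within replicate 1, Slit3 ranked 7 by gene TPM and 28 by coding TPM, Sema3c 12 and 42, and Plxnb2 14 and 51. In that library Sema5a, Sema3e and Sema6d were the highest semaphorins by coding TPM, but Sema5a was at 0.28 gene TPM in replicate 2. Of the 47 members, 44 kept coding TPM of at least 1, beside 95.3% of the protein-coding genes.

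**Figure D4:**
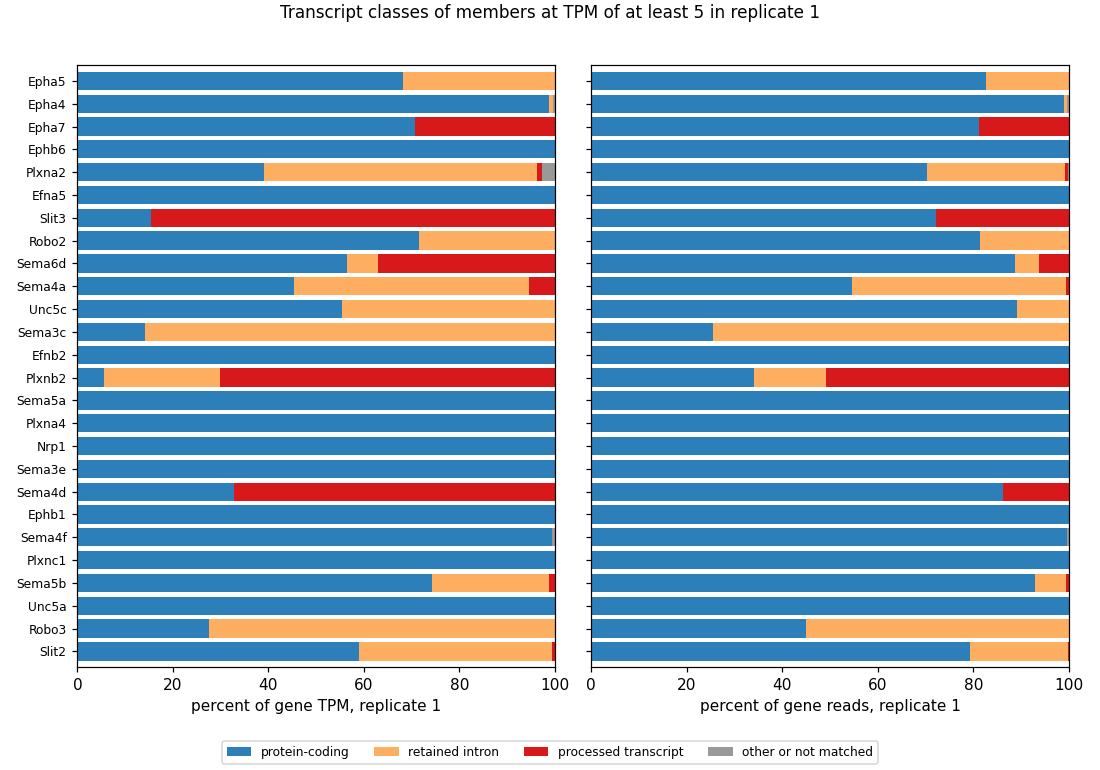
Share of each gene's TPM (left) and reads (right) by transcript class in replicate 1, in percent, for members at gene TPM of at least 5, ordered by level. Slit3 shows 15.4% of TPM but 72.2% of reads on its coding transcript, while Sema3c, Plxnb2 and Robo3 have most of both on noncoding classes.

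The machinery behind the receptors was more abundant. Of 44 intracellular partners, 38 were detected in both libraries (52.2% of all protein-coding genes were), with medians of 16.1 and 15.8 TPM. The highest were Chn1, the chimaerin that acts downstream of Epha4, at 649 and 831 TPM, and the GTPase Cdc42 at 643 and 613 TPM. Dpysl2, the collapsin response mediator protein of semaphorin signalling, stood at 512 and 609 TPM. Among the 31 partners with enough reads to compare, 1 lay beyond 2-fold, namely Dock1, a GTPase exchange factor used by netrin receptors, with 433 and 162 reads, beside 2.6% of all genes higher in replicate 1.

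Of 24 other guidance cues and receptors matched by symbol, 17 were detected in both libraries (52.2% of all protein-coding genes were), with medians of 4.82 and 5.49 TPM. The cell adhesion molecule Nrcam, a semaphorin co-receptor component, stood at 30.2 and 36.9 TPM. Adam10, a protease that cleaves ephrins, stood at 24.2 and 18.0 TPM. Chl1, an adhesion molecule that partners neuropilin 1, stood at 22.7 and 15.3 TPM. Among the 14 with enough reads, 1 lay beyond 2-fold, the Wnt receptor Fzd3 of axon tracts, with 952 and 263 reads, beside the same 2.6%.

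Assignment of reads to genes was mostly unambiguous for the members. In GENCODE M21, exons of 16 members overlap another annotated gene. More than 10% of bases overlap for Efna3 (14.1%), Plxna1 (10.7%) and Efna4 (10.5%), where the other gene lies on the opposite strand. Reads of the partners cannot be told apart there if strand was not used. For Sema4a (1.35%), Nrp1 (0.82%) and Plxnc1 (1.38%) the overlapping gene lies on the same strand, so strand would not separate the reads. The authors' posterior SD exceeded 5% of the count for 1 member, Epha1, at 14.6%.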

How the data were processed

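Each library had a gene table in which the authors deposited an expected count (estimated reads per gene, not normalized), TPM (scaled over all entries, spike-ins included) and FPKM. A transcript table was used for replicate 1; its deposited percent is the part of a gene's TPM held by 1 transcript. Values were made on mm10 with annotation M4, per the text files that accompany the deposited tables. Which aligner and quantifier were used, and whether strand was read, is not given in the sources used here.

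Genes were matched by identifier to GENCODE M21 on GRCm38 (42462 of 43346), which gave symbols, positions and transcript classes. The 96 spike-ins and other entries that name no gene were left out of library sizes. Expected counts were rounded, and edgeR 4.0.16 under R 4.3.3 gave TMM factors, with size factors from DESeq2 1.42.0 as an alternative. Ratios used log2((CPM + 1)/(CPM + 1)) at mean CPM of at least 10, with 95% exact conditional binomial intervals, and the ratio code was checked on counts with known changes. Without molecular identifiers, intervals and the floor of 3 reads cover counting error only. The remaining steps ran under Python 3.11.15 with pandas 2.3.3, scipy 1.17.1 and Biopython 1.88.

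The members, the lists and the rules were chosen with earlier results of these data known. The rule named members at mean TPM of at least 5 or at least 2-fold different, the 3 highest genes of each pathway list and, for transcripts, the 5 highest members and those at TPM of at least 10 led by a noncoding transcript. Other members given with values, and the printed stretches, were chosen after values were seen. Coding bases are given in place of proteins. The coding sequence of Epha10 is annotated without its start. Limits, pseudocounts, filters, scaling and unit (FPKM) were varied.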

Additional observations from a re-analysis of the deposited data

How the results depend on the processing

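No test was run on the 2 libraries, and each result was judged by its direction and by the spread between libraries. Detection in both libraries, 39 members, was 20 at TPM of at least 5, 46 at TPM of at least 0.5, 58 at a count of at least 10, and 43 to 47 when 1 library was left out. The median of 2.64 TPM was 2.91 when rescaled over genes alone, 2.15 in FPKM, 5.31 over members at mean TPM of at least 1, and 2.02 over protein-coding transcripts of replicate 1, an alternative added after the data were seen. With that alternative the receptor minus ligand difference was -0.34 for semaphorins, -0.41 for ephrins and -0.18 for Slits. The ephrin difference was -0.020 with a pseudocount of 0.1, 0.65 with means, 0.84 at mean TPM of at least 1, and -0.20 to 0.20 with 1 library left out. The Slit difference was 0.36 with means and -0.056 to 0.045 with 1 library left out. The netrin difference kept its direction under every alternative run, at 2.66 with a pseudocount of 0.1, 1.22 with means and 1.69 at mean TPM of at least 1. The count of 3 members beyond 2-fold of 31, beside 4.46% of all genes, was 5 of 32 under spike-in totals (4 higher in replicate 1 and 1 in replicate 2; all genes 7.3%). It was 9 of 56 at mean CPM of at least 1 (6 and 3, all genes 10.4%) and 7 of 49 by TPM ratio (4 and 3, all genes 9.54%). Without a filter it was 9 of 66, beside 4.2% of all 43346 gene entries. That share includes entries with few or no reads and is not a like comparison. Where fewer members, reads of 1 library or another scale entered, that construction changed the value; other causes were not tested. A floor of 3 reads corresponds to 0.128 and 0.115 CPM.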
